A study of Mus musculus with 2 samples.

Results

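Single-exon incomplete models are transcript models made of 1 exon that lie inside a longer spliced transcript and lack its other exons. They were taken as all models that the authors' annotation called an incomplete splice match with 1 exon, by their class and exon number alone. There were 1911 such models in replicate 1 and 2330 in replicate 2, together 4241 of 148821 models. They held 25786 reads in replicate 1 and 55218 reads in replicate 2. Of the models, 1886 in replicate 1 and 2292 in replicate 2 were placed in annotated genes. The other 25 and 38 lay in loci that the authors called new genes, so the class was not wholly within known genes.

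The study measured heart RNA of adult male B6CASTF1/J mice, a first-generation cross of C57BL/6J and CAST/EiJ, aged 18 to 20 months, by long-read RNA sequencing of total RNA. It holds 1 group with 2 libraries, each from 2 µg of RNA with added synthetic spike-ins, labelled as biological replicates 1 and 2 and carrying the same donor identifier. There was no contrast between conditions, so every test compares these 2 libraries or 2 classes of models, and p-values cover counting error only. Reads on mouse models numbered 688861 in replicate 1 and 1003999 in replicate 2.

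The 5 cardiomyocyte markers Myh6, Actc1, Tnnt2, Tnni3 and Ryr2 summed to 21629 reads per 1000000 mouse reads (CPM) in replicate 1 and 19749 CPM in replicate 2. The 3 skeletal muscle, 2 liver and 2 lung markers had no read in either library. Intervals are 95% Clopper-Pearson intervals. A count of 0 allows up to 4.36 CPM in replicate 1 and 2.99 CPM in replicate 2, counting 3 reads as the limit. Nothing in the labels says that the libraries came from separate animals, so their spread may be technical.

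In long-read sequencing of polyadenylated RNA, complementary DNA synthesis starts at the poly(A) tail and runs towards the 5′ end of the RNA. A read that covers only the last exon carries no splice junction, so it cannot be assigned to 1 isoform of a gene. The last exon of most mRNAs holds the stop codon and the 3′ untranslated region. Near its end lies the poly(A) signal, most often AATAAA or ATTAAA, which directs cleavage and tail addition. Heart muscle works without pause, and its cells are rich in mRNAs of mitochondrial energy supply, the contractile apparatus and calcium handling.

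Sequences at the 3′ ends of models among those with most reads are shown because most class reads lay in last exons, which end there. They are the last 30 bases in mRNA sense, in mm10 coordinates, from the GENCODE M21 transcripts. Capitals mark AATAAA, or ATTAAA where there is no AATAAA; a sequence without capitals has neither in the last 50 bases.
Slc25a4 (chr8:46206797-46206826, minus strand): ccaagtggacaatataaactgaagaacagt
Pln (chr10:53344238-53344267, plus strand): tcctcaacatggctcataaatttctttcct
Cox6a2 (chr7:128205435-128205464, minus strand): caagcaatacattgaatattgagcatatta
Slc25a5 (chrX:36798778-36798807, plus strand): aaattgaagaAATAAAaatacccaaaacca
Ndufb3 (chr1:58595935-58595964, plus strand): tcttaAATAAAattaaaaagaaaactgtaa
Mcee (chr7:64412092-64412121, plus strand): aagATTAAAatatatgcacatgtatataca
Mrpl30 (chr1:37898309-37898338, plus strand): ttctcATTAAAgtgtatgttcatccagtca
Cox7a1 (chr7:30186001-30186030, plus strand): AATAAAtatgctaatctcttgagaacccaa
Ndufa5 (chr6:24518666-24518695, minus strand): taaatgtgcaATTAAAtgctctgtgatgct
Of these ends, Slc25a4, Pln and Cox6a2 lacked both hexamers, and each of the others carried at least 1; Ndufb3 carried both, with ATTAAA directly after AATAAA.

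The class took 3.74% of mouse reads in replicate 1 (interval 3.70 to 3.79%) and 5.50% in replicate 2 (5.46 to 5.54%), a mean of 4.62 ± 1.24% (SD, n = 2). The intervals did not overlap. Pln, the gene of phospholamban, held 0 class reads in replicate 1 and 10441 in replicate 2. Without the class reads of Pln, and still out of all mouse reads, the shares were 3.74% in replicate 1 and 4.46% in replicate 2 (Fisher's exact test, two-sided, p = 1.57e-117). The 10 genes with most class reads held 47.0% of class reads in replicate 1 and 60.0% in replicate 2. Most models were small: 41.4% in replicate 1 and 36.2% in replicate 2 had 1 read, and 15.4% and 18.2% had at least 10 reads. Protein-coding genes held 99.3% of class reads in replicate 1 and 99.0% in replicate 2. A gene seldom had more than 1 such model, since 1833 of 1858 annotated genes in replicate 1 and 2223 of 2257 in replicate 2 had exactly 1.

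The position of each model was read against a reference transcript, the annotated spliced transcript of its gene with most known reads. At ties, and in genes without known reads, the longest such transcript was taken. A model was placed in an exon where at least 50% of its length overlapped it. The last exon held 1714 of 1911 models and 25036 reads, or 97.1% of class reads, in replicate 1 (interval 96.9 to 97.3%). It held 2028 of 2330 models and 53686 reads, or 97.2%, in replicate 2 (97.1 to 97.4%). The shares of reads differed by less than counting error (Fisher's exact test, two-sided, p = 0.284). Without Pln the share was 97.1% in replicate 1 and 96.6% in replicate 2 (p = 0.000204, Fisher's exact test), so the direction reversed. With Pln kept it also reversed in 2 other settings. These were any annotated last exon (98.6% in replicate 1 and 98.3% in replicate 2) and each model counted once (89.7% and 87.0%). First exons held 32 models with 87 reads in replicate 1 and 43 models with 152 reads in replicate 2. Internal exons held 20 models with 38 reads in replicate 1 and 37 models with 94 reads in replicate 2. A further 118 models with 578 reads in replicate 1, and 179 with 956 reads in replicate 2, lay outside the exons of the reference transcript. No spliced reference existed for 27 and 43 models.

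Genomic single-exon models were the class most like it: they also have 1 exon inside a gene, but equal no annotated exon. They held 6476 models and 38619 reads in replicate 1, and 8833 models and 61348 reads in replicate 2. Last exons held 89.7% of single-exon incomplete against 65.6% of genomic models in replicate 1, and 87.0% against 59.2% in replicate 2. Both differences exceeded counting error (Fisher's exact test, p = 9.22e-107 in replicate 1 and 8.19e-157 in replicate 2). The classes themselves differ in their match to exons, so this test cannot separate position from the way the models were named. Models outside the exons of the reference made up 6.17% of the incomplete and 32.0% of the genomic class in replicate 1, and 7.68% and 37.7% in replicate 2. The median length was 554 nt for incomplete and 565 nt for genomic models in replicate 1, and 543 and 488 nt in replicate 2. Mean reads per model were 13.5 in the incomplete and 5.96 in the genomic class in replicate 1, and 23.7 and 6.95 in replicate 2.

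**Figure D1:**
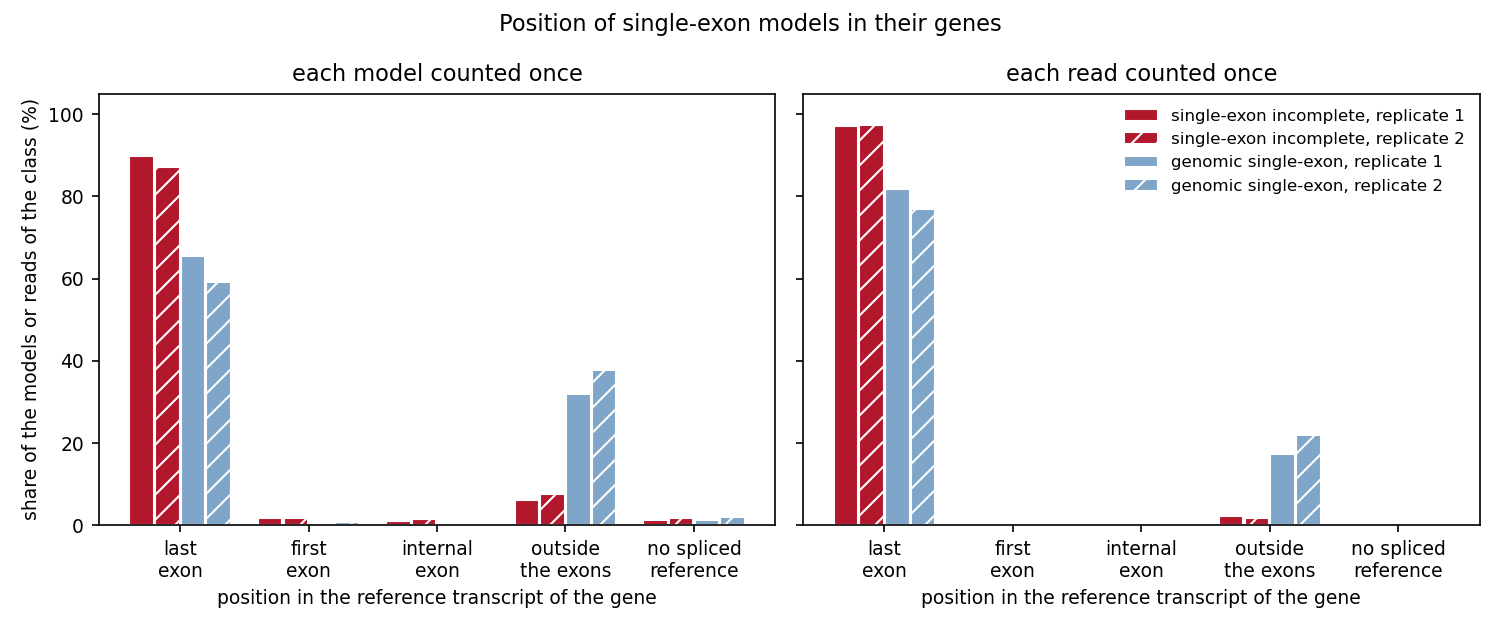
Share of models (left) and of reads (right), in percent of each class, by position in the reference transcript, for single-exon incomplete (red) and genomic single-exon models (blue) in replicate 1 (plain) and replicate 2 (hatched). Last exons hold 97.1% and 97.2% of single-exon incomplete reads, against 81.8% and 76.9% of genomic reads.

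The position was also counted from the side of the exons, over 3944 genes that had at least 20 reads in both libraries. A class model with exactly the same ends was found for 526 of 3944 reference last exons in replicate 1 (13.3%) and 565 in replicate 2 (14.3%). For reference first exons the numbers were 7 and 7 (0.177% in each library). Of 31008 internal exons, 2 had a class model in replicate 1 and 11 in replicate 2.

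Model ends follow exon ends, and the ends of single reads were not analysed here. Each of the 4241 models had the same start and end as 1 exon of a spliced model in the annotation deposited with its library. For 1619 models in replicate 1 (84.7%) and 1938 in replicate 2 (83.2%) that exon was annotated in GENCODE M21. No genomic single-exon model equalled an annotated exon, 0 of 6476 and 0 of 8833. For 291 models in replicate 1 and 390 in replicate 2 the exon belonged only to new spliced models of that library.

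The bases of the models were mostly 3′ untranslated. Of all model bases, 74.9% in replicate 1 and 72.8% in replicate 2 were 3′ untranslated region, 20.8% and 21.4% were coding, and 2.20% and 2.80% lay outside annotated exons of the gene. The end of an annotated coding sequence lay inside 1640 models in replicate 1 (85.8%) and 1940 in replicate 2 (83.3%). Median lengths were 573 and 582.5 nt for models in last exons, 277 and 230 nt in first exons, and 177.5 and 143 nt in internal exons. The whole annotated coding sequence of at least 1 transcript of the gene lay inside 54 models in replicate 1 and 64 in replicate 2. Whether it was the longest coding sequence of the gene was not compared. These held 318 reads in replicate 1 and 11037 in replicate 2, of which Pln made 10441. Gja1, the main ventricular gap junction protein connexin 43, had 33 and 47 such reads. Cox14, an assembly factor of cytochrome c oxidase, had 64 in replicate 2. Rcan2, a regulator of calcineurin, had 70 in replicate 1. The Rcan2 model held only 155 coding bases and the coding sequence of 1 annotated transcript.

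Model ends were set against annotated transcript ends and the poly(A) signals. Of models in genes with an annotated spliced transcript, 88.5% in replicate 1 and 86.5% in replicate 2 ended within 50 nt of an annotated end. Among spliced incomplete models of the 3′ part of a transcript, the share was 88.4% in each library. The difference was within counting error in replicate 1 (Fisher's exact test, p = 0.908) and exceeded it in replicate 2 (p = 0.0125). Each model was counted once, and models of a gene share their ends. Ends of class models follow exon ends, so the test does not show where single reads end. Weighted by reads, the class was higher than the 3′ part in both libraries, with 94.8% against 90.2% in replicate 1 and 95.1% against 93.5% in replicate 2.

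AATAAA or ATTAAA, read on the sense strand with either one counted once, was present in the last 50 bases of 78.2% of the class in replicate 1 and 77.4% in replicate 2. The 3′ part models held one in 80.0% and 79.8% (Fisher's exact test, p = 0.0625 in replicate 1 and p = 0.00991 in replicate 2). The last 50 bases of reference last exons held one in 79.0% of 3936 genes, and their opposite strand in 13.0%. The same window held one in 0.415% of 3857 first exons and 2.21% of 29732 internal exons. Weighted by reads, the share in the class was 63.1% in replicate 1 and 50.03% in replicate 2; the ends of Slc25a4, Pln and Cox6a2 shown above lacked both hexamers. Class models that ended at an annotated end carried a hexamer in 82.0% of 1663 in replicate 1 and 81.8% of 1965 in replicate 2. Those that ended elsewhere carried one in 43.9% of 187 and 45.6% of 272.

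Slc25a4, the adenine nucleotide carrier that exchanges ADP and ATP across the inner mitochondrial membrane in heart and muscle, had 5814 class reads of 16726 gene reads in replicate 1 and 9766 of 23511 in replicate 2. Its class level was 9084 ± 910.1 CPM (SD, n = 2), the highest mean of any gene, while in replicate 2 Pln was higher, with 10399 CPM against 9727 CPM for Slc25a4. In bulk heart RNA, fewer cells of a type and less RNA per cell cannot be told apart. The single model, 824 nt on the minus strand of chromosome 8 (46206797 to 46207620), equalled exon 4 of its 4 annotated exons, with 155 coding bases and 669 bases of 3′ untranslated region. The share of the gene's reads was 34.8% in replicate 1 (interval 34.0 to 35.5%) and 41.5% in replicate 2 (40.9 to 42.2%), lower in replicate 1 beyond counting error (Fisher's exact test with Benjamini-Hochberg adjustment, adjusted p = 3.63e-41).

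Slc25a5, the more widely expressed adenine nucleotide carrier, had 973 of 1467 reads in the class in replicate 1 (66.3%) and 1759 of 2307 in replicate 2 (76.2%). The share was lower in replicate 1 (Fisher's exact test, adjusted p = 1.07e-09). Its model of 403 nt lay in the last exon on chromosome X from 36798405 to 36798807 and equalled no annotated exon.

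Among subunits of the respiratory chain, Uqcrq, a small subunit of complex III, had 1953 of 3200 reads in the class in replicate 1 (61.0%) and 3345 of 5380 in replicate 2 (62.2%). Its model of 198 nt, on chromosome 11 from 53428953 to 53429150, equalled an annotated last exon. Cox6a2, the heart and muscle form of a cytochrome c oxidase subunit, had 1411 of 3613 reads in replicate 1 (39.1%) and 2656 of 6866 in replicate 2 (38.7%). Ndufb3, an accessory subunit of complex I, had 855 of 1148 reads in replicate 1 (74.5%) and 1653 of 2191 in replicate 2 (75.4%). Cox7a1, another heart and muscle form of a cytochrome c oxidase subunit, had 395 of 1519 reads in replicate 1 (26.0%) and 724 of 2851 in replicate 2 (25.4%). Ndufa5 of complex I had 268 of 1350 reads in replicate 1 (19.9%) and 497 of 2422 in replicate 2 (20.5%). For these 5 genes the shares did not pass the test, with adjusted p between 0.732 and 1.0 in Fisher's exact test. Which of several near-identical copies a read was given to was decided in the authors' mapping, so counts of genes with processed copies are uncertain.

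Mcee, the methylmalonyl-CoA epimerase of propionate breakdown, had 438 of 547 reads in the class in replicate 1 (80.1%) and 869 of 1040 in replicate 2 (83.6%), a difference that did not pass (adjusted p = 0.368, Fisher's exact test). Acadl, the long-chain acyl-CoA dehydrogenase, had 151 of 920 reads in replicate 1 (16.4%) and 283 of 1244 in replicate 2 (22.7%). Acot13, an acyl-CoA thioesterase, had 350 of 639 reads in replicate 1 (54.8%) and 0 of 1089 in replicate 2, where 611 reads were on genomic single-exon models. Mrpl30, a protein of the mitochondrial ribosome, showed the opposite, with 0 of 846 reads in replicate 1, where 697 were genomic single-exon reads, and 1424 of 1674 in replicate 2 (85.1%).

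Among genes of the contractile apparatus and cytoskeleton, Des, the muscle intermediate filament protein desmin, had 333 of 1848 reads in the class in replicate 1 (18.0%) and 0 of 2279 in replicate 2, where 624 were genomic single-exon reads. Actc1, cardiac actin, had 133 of 2280 reads in replicate 1 (5.83%) and 192 of 2988 in replicate 2 (6.43%). Tnni3, cardiac troponin I, had 126 of 511 reads in replicate 1 (24.7%) and 191 of 747 in replicate 2 (25.6%). Myom1, a protein of the M-band, had 107 of 279 reads in replicate 1 (38.4%) and 225 of 437 in replicate 2 (51.5%), lower in replicate 1 (Fisher's exact test, adjusted p = 0.00667). Of the other genes among the 20 with most class reads, Prdx2, Gmpr, Cdc34 and Col4a2 had class reads in both libraries. Col4a2, a basement membrane collagen chain, had 116 of 171 reads in replicate 1 (67.8%) and 192 of 260 in replicate 2 (73.8%).

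**Figure D2:**
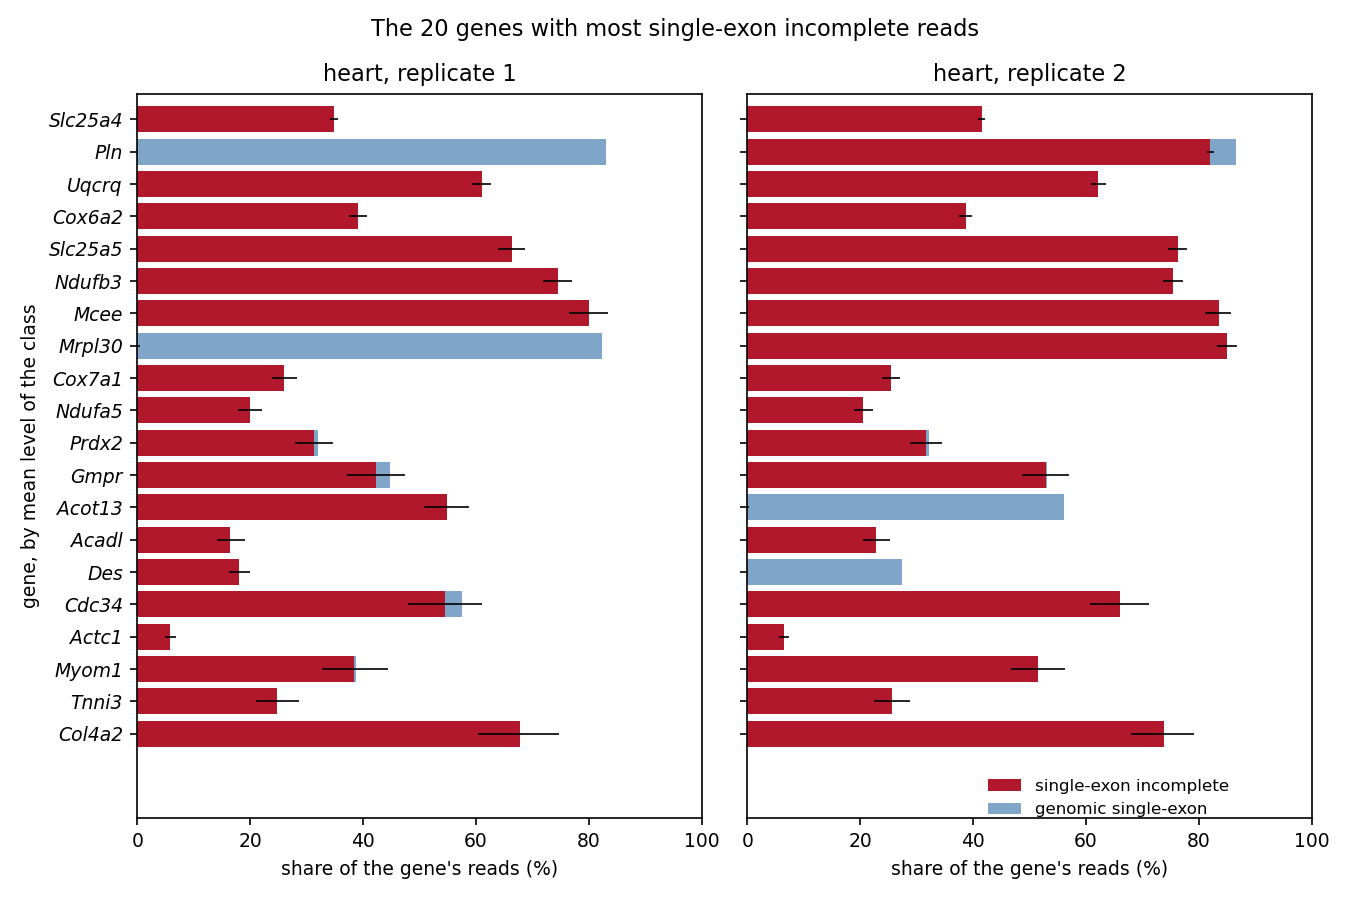
Share of each gene's reads, in percent, on single-exon incomplete models (red, with 95% Clopper-Pearson intervals as lines) and on genomic single-exon models (blue, added to the right), for the 20 genes with the highest mean level of the class, in replicate 1 (left) and replicate 2 (right). Pln and Mrpl30 are red only in replicate 2 and Acot13 and Des only in replicate 1, with blue bars in the other library.

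Phospholamban inhibits the calcium pump of the sarcoplasmic reticulum, and its gene Pln has a coding sequence that lies wholly in its last exon. The class model of replicate 2 was 511 nt on the plus strand of chromosome 10 (53343757 to 53344267), ended at an annotated transcript end, and held 10441 of 12724 Pln reads (82.1%). Replicate 1 had a model with the same start and end and 5067 of 6455 reads (78.5%), but there it was called genomic. With all single-exon reads counted, the share was 83.0% in replicate 1 and 86.5% in replicate 2. The known transcript Pln-201, with 2 exons, held 981 reads in replicate 1 and 1521 in replicate 2. In the annotation of replicate 2, 2 new spliced models with 3 reads in all held the 511 nt interval as an exon; in that of replicate 1 there was none. The gene Gm47644 overlaps this model on the opposite strand; 79 class models in replicate 1 and 85 in replicate 2 overlapped such a gene. No label or header says whether counting used strand, so the reads of such a pair cannot be told apart. The coding sequence inside the model is printed because the model holds all of it; capitals mark the start and stop codons, in mm10 from the GENCODE M21 transcripts.
Pln (chr10:53343864-53344022, plus strand): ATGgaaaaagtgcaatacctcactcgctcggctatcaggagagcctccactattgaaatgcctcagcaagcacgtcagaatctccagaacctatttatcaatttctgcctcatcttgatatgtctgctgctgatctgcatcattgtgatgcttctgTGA
These 159 bases encode the whole protein within 1 exon. How far single reads on the model extend was not analysed here.

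**Figure D3:**
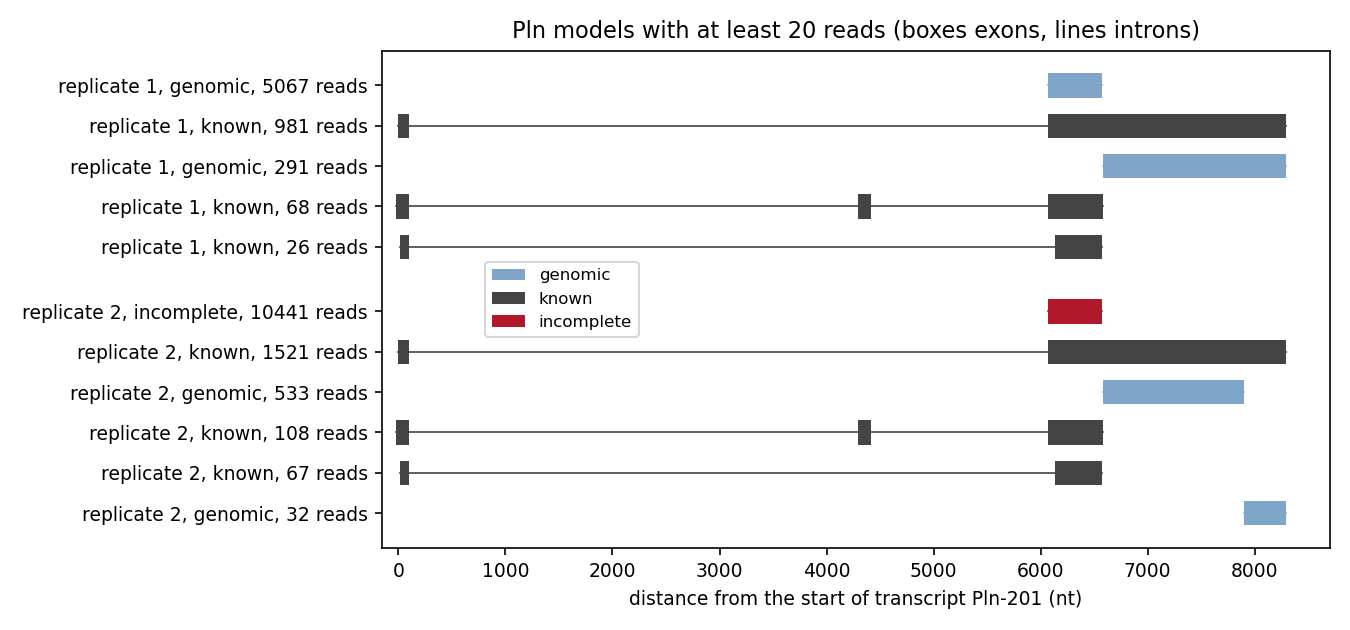
Pln models with at least 20 reads, drawn to scale as distance from the start of transcript Pln-201 in nt (boxes exons, lines introns), for replicate 1 (upper 5) and replicate 2 (lower 6), with their reads. The model of 511 nt has the same place in both libraries, with 5067 reads as genomic in replicate 1 and 10441 reads as incomplete in replicate 2.

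Where both libraries had at least 100 reads of a gene, Mcee had the highest mean share of its own reads in the class, 81.8 ± 2.46% (SD, n = 2). Ndufaf7, an assembly factor of complex I, followed with 69.7% in replicate 1 and 81.9% in replicate 2. Nol7, a nucleolar protein, had 64.9% in replicate 1 and 68.7% in replicate 2. Dcun1d5, a factor of cullin neddylation, had 57.5% and 60.4%, and Tmem160 had 59.7% and 55.9%. Cdc34, a ubiquitin-conjugating enzyme, had 54.5% in replicate 1 and 66.1% in replicate 2. Ndufb3, Slc25a5, Col4a2 and Uqcrq, described above, completed the 10. Of these 10 genes the shares of Slc25a5 and Cdc34 differed between the libraries beyond counting error, and the models of Cdc34 differed too, with 269 nt in replicate 1 and 550 nt in replicate 2 from the same start.

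Class reads outside the last exon of the reference transcript were few, and 5 of the 10 genes that led them had models equal to an annotated last exon of another transcript. Tnnt2, cardiac troponin T, had 58 reads in replicate 1 and 78 in replicate 2 on such a model of 234 nt. No read of Tnnt2 was on a known transcript in either library, so its reference was its longest spliced transcript. Clstn1 had 15 reads in replicate 1 and 18 in replicate 2, and Csf1, the macrophage growth factor, had 10 and 24. Map4, a microtubule-associated protein, had 56 such reads in replicate 1 and 0 in replicate 2, where 97 of its reads were genomic single-exon. Speg, a muscle kinase, had 0 in replicate 1, with 20 genomic single-exon reads, and 47 in replicate 2. Fabp3, the heart fatty acid-binding protein, had 53 class reads in its last exon in replicate 1 and 97 in replicate 2 on a longer model of 3173 nt with 2606 bases outside annotated exons. Dlst, the succinyl transferase of the tricarboxylic acid cycle, had 79 reads in the last exon in replicate 1 and 107 in replicate 2 on a model of 3022 nt that ran 795 nt past an annotated end. Both long models rested on new spliced models only.

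Hk2, hexokinase 2, which phosphorylates glucose, had class reads at its 5′ end: 38 reads in replicate 1 and 83 in replicate 2 on a model of 537 nt equal to its annotated first exon, on the minus strand of chromosome 6 (82773918 to 82774454). It held 474 bases of 5′ untranslated region and 63 coding bases, had neither hexamer in its last 50 bases, and made 29.2% of Hk2 reads in replicate 1 and 43.9% in replicate 2 (adjusted p = 0.0617, Fisher's exact test). A further 34 reads in replicate 1 and 35 in replicate 2 were on genomic single-exon models of Hk2. Gm49673 had 17 of 19 reads in replicate 1 and 38 of 47 in replicate 2 on a model of 236 nt inside its ninth exon. The gene Rnaset2a shares that stretch on the same strand. Gm49673 had no read on a known transcript, so its exons were counted in its longest spliced transcript.

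The interval from 21910419 on chromosome 4 was given to different genes. In replicate 1 a model of 524 nt with 136 reads was counted for Pnisr, a splicing-related gene, although it ended 34467 nt past the annotated Pnisr end and lay inside Coq3. In replicate 2 a model of 521 nt with the same start held 319 reads and was counted for Coq3, which encodes a methyltransferase of coenzyme Q synthesis. The Coq3 share was therefore 0 of 47 reads in replicate 1 and 319 of 376 in replicate 2. Both models rested on new spliced models only, with 3 reads in each library.

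The libraries shared fewer loci than reads. Loci were joined by an overlap of at least 1 base on the same strand. Of 1910 loci in replicate 1, 949 (49.7%) had a partner in replicate 2, and 40.8% of 2328 loci in replicate 2 had one in replicate 1. Among loci of at least 5 reads, 68.0% in replicate 1 and 63.9% in replicate 2 had a partner. Loci with a partner held 80.1% of class reads in replicate 1 and 64.7% in replicate 2. In the other library, 500 models of replicate 1 and 529 of replicate 2 overlapped genomic but no incomplete single-exon models with other ends, and 434 and 812 overlapped no single-exon model of their strand. Models with no overlap held 2.14% of class reads in replicate 1 and 2.39% in replicate 2. By gene, 959 genes had class reads in both libraries, which was 51.6% of the genes of replicate 1 and 42.5% of those of replicate 2. The same shares were not counted for other classes of models or for all genes. Low sharing can therefore not be read as a trait of this class.

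The share of each gene's reads in the class was compared between the libraries by Fisher's exact test over 1737 genes with at least 20 reads in each. Of these, 263 passed at an adjusted p of 0.05 (15.1%), with 120 higher in replicate 1 (6.91%) and 143 lower (8.23%). In 227 of the 263 genes 1 library had no class read, and in 221 of those 227 that library had genomic single-exon reads of the gene. Over all 1737 genes tested, 1038 had class reads in 1 library only, and 708 of these had genomic single-exon reads in the other. Among the 699 genes with class reads in both libraries, 36 passed, and the median share was 4.50% in replicate 1 and 4.71% in replicate 2. With all genomic single-exon reads counted in, 30 of 3510 genes passed, 1 higher and 29 lower in replicate 1, and 16 of these 30 were among the 263.

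In most of the genes with the largest differences, the library without class reads had genomic single-exon reads. Lrg1, a secreted glycoprotein, had 49 of 55 reads in the class in replicate 1 and 0 of 77 in replicate 2, where 70 were genomic single-exon reads. Klf9, a transcription factor induced by glucocorticoids, had 104 of 121 reads in replicate 1 and 0 of 113 in replicate 2, with 104 genomic reads. Neurl4, Adgrf5 and Polr2l also had class reads in replicate 1 only, with 32, 30 and 300 genomic single-exon reads in replicate 2. In the other direction, Ywhag, a 14-3-3 protein, had 0 of 27 reads in replicate 1, with 24 genomic reads, and 43 of 50 in replicate 2. Gadd45gip1, a protein of the mitochondrial ribosome, had 0 of 203 reads in replicate 1, with 161 genomic reads, and 288 of 353 in replicate 2. Mrpl30 and Pln, described above, were alike in this. Coq3 had no genomic single-exon read in replicate 1.

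The level of the class was compared by an exact binomial test against the libraries' shares of mouse reads, over 618 genes with at least 10 class reads. Of these, 254 passed (41.1%), with 94 higher in replicate 1 (15.2%) and 160 lower (25.9%). Relative to all class reads in place of all mouse reads, 234 passed, 124 higher and 110 lower in replicate 1. In 198 of the 254 genes 1 library had no class read, 192 of them with genomic single-exon reads there. The same counts over all 618 genes are not given here. With all genomic single-exon reads added, 90 of 2055 genes passed, 11 higher and 79 lower in replicate 1.

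Within a library, the single-exon reads of a gene nearly always carried 1 of the 2 names. Of 854 genes with at least 10 single-exon reads in each library, 95.1% in replicate 1 and 94.4% in replicate 2 had at least 90% of them under a single name. They were incomplete in both libraries in 189 genes and genomic in both in 441. In 156 genes (18.3%) the name was opposite: 77 were incomplete in replicate 1 and genomic in replicate 2, and 79 the other way round. In the first 77 genes the single-exon share of gene reads had a median of 18.2% in replicate 1 and 24.1% in replicate 2, and in the 79 others of 29.1% in replicate 1 and 36.8% in replicate 2.

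**Figure D4:**
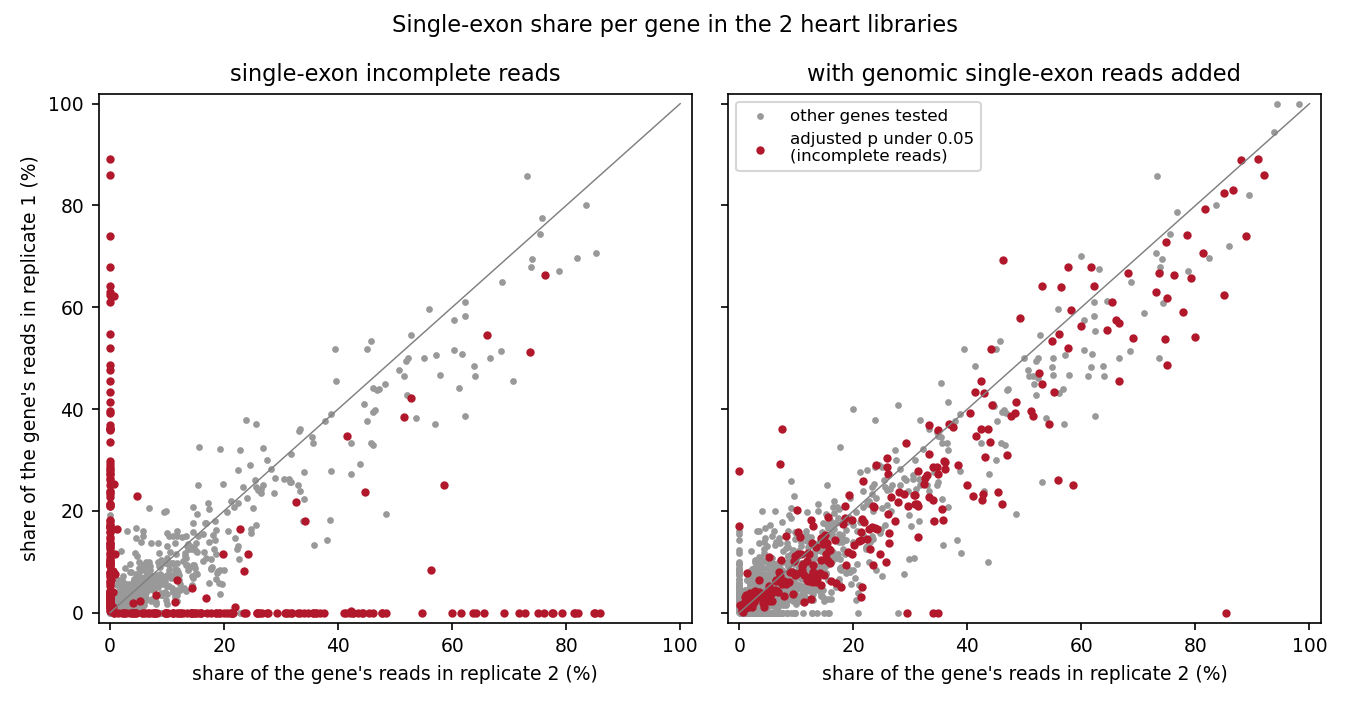
Share of each gene's reads, in percent, in replicate 1 (vertical) against replicate 2 (horizontal) over 1737 genes, for single-exon incomplete reads alone (left) and with genomic single-exon reads added (right); red points are the 263 genes past the adjusted p of 0.05 in the left comparison. On the left most red points lie on an axis, at 0 in 1 library, and on the right most lie near the diagonal line of equal shares.

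Spliced models that share the exon of a class model often had few reads. Their part in the naming of a model was not tested, and genomic models were not counted in this way. Only spliced models that hold an exon with exactly the same start and end were counted here. Among class models with at least 10 reads, 130 of 294 in replicate 1 and 205 of 425 in replicate 2 had more reads than all such spliced models. For models that rested on new spliced models only, the median of those spliced reads was 3 in both libraries, over 44 models in replicate 1 and 63 in replicate 2. Slc25a5 had 973 class reads in replicate 1 and 1759 in replicate 2, and in each library the spliced model with exactly that exon had 1 read. Its known transcripts, with other exon ends, had 483 reads in replicate 1 and 535 in replicate 2. Slc25a4 had 10789 spliced reads with its exon in replicate 1 and 13570 in replicate 2, more than its class reads. Prdx2, a peroxiredoxin, had 237 class reads beside 8 spliced reads with exactly its exon in replicate 1, and 341 beside 13 in replicate 2. All known transcripts of Prdx2 had 507 reads in replicate 1 and 717 in replicate 2.

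Gene lists of heart function were compared with all 15431 annotated genes with reads, of which 3156 had class reads and 1737 were tested. Over all genes tested, 15.1% passed, 6.91% higher and 8.23% lower in replicate 1, and the pooled class share of all genes was 3.87% in replicate 1 and 5.71% in replicate 2. Where both libraries had at least 20 reads of a gene, the median class share was 0% in both, and the median of all single-exon reads was 3.33% in replicate 1 and 4.17% in replicate 2. Of 30 nuclear genes of the respiratory chain, 23 had class reads and were tested, and 5 were higher in replicate 1 and 1 was lower. The list pooled to 7.11% of its reads in replicate 1 and 8.12% in replicate 2, with a median per gene of 0.793% and 0.330%. The median of all single-exon reads in the list was 1.28% and 1.56%, below that of all genes. Among its members, Atp5o, a stalk subunit of ATP synthase, had 161 of 1599 reads in the class in replicate 1 and 0 of 2516 in replicate 2, with 241 genomic single-exon reads.

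Of 29 sarcomere and Z-disc genes, 25 had class reads and were tested, with 4 higher and 3 lower in replicate 1. Their pooled share was 2.23% in replicate 1 and 1.51% in replicate 2, below that of all genes. The median class share per gene was 1.42% in replicate 1 and 0.945% in replicate 2. For all single-exon reads the median was 3.85% in replicate 1 and 5.59% in replicate 2. Both medians were above those of all genes. Of 22 genes of calcium handling and excitation, 13 had class reads, with 3 higher and 3 lower in replicate 1. Their pooled share was 1.08% in replicate 1 and 32.6% in replicate 2, where Pln held nearly all class reads. Gja1, named above, had 33 of 663 reads in the class in replicate 1 (4.98%) and 47 of 787 in replicate 2 (5.97%), a difference that did not pass (adjusted p = 0.845, Fisher's exact test).

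Of 22 genes of the tricarboxylic acid cycle and pyruvate oxidation, 14 had class reads, 1 higher and 2 lower in replicate 1. Ogdh, a subunit of the oxoglutarate dehydrogenase complex, had 92 of 792 reads in replicate 1 (11.6%) and 134 of 1152 in replicate 2 (11.6%), while Cs, citrate synthase, had 25 of 728 (3.43%) and 64 of 789 (8.11%). Of 25 genes of fatty acid uptake and oxidation, 19 had class reads, 1 higher and 4 lower. Ech1, an auxiliary enzyme of the pathway, had 24 of 1217 reads in replicate 1 (1.97%) and 82 of 1996 in replicate 2 (4.11%). Of 20 genes listed under glycolysis and glucose uptake, which include genes of glycogen metabolism, 12 had class reads and were tested. Of these, 1 was lower in replicate 1, the glycogenin gene Gyg. Gyg had 0 of 126 reads in the class in replicate 1, beside 34 genomic single-exon reads, and 57 of 173 in replicate 2. With genomic reads added its shares were 27.0% in replicate 1 and 32.9% in replicate 2.

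Of 28 cytosolic ribosomal protein genes, 17 had class reads, with a pooled share of 1.39% in replicate 1 and 0.997% in replicate 2, and 2 higher and 1 lower in replicate 1. Of 20 chaperone genes, 14 had class reads, 1 higher and 3 lower in replicate 1. Hspd1, the mitochondrial chaperonin, had 27 of 426 reads in replicate 1 (6.34%) and 58 of 492 in replicate 2 (11.8%). Of 23 matrix and fibroblast genes, 12 had class reads, 9 were tested and 2 were lower in replicate 1. Of 15 endothelial genes, 8 had class reads and none of the 5 tested passed; Aqp1, a water channel, had 36 of 72 reads in replicate 1 and 44 of 66 in replicate 2. Of 28 splicing regulators, 14 had class reads, 11 were tested and 1 was lower in replicate 1. This was Rbm20, which regulates titin splicing, with 0 of 39 reads in replicate 1 and 15 of 70 in replicate 2. Of 22 cardiac transcription factors and nuclear receptors, 7 had class reads, only 4 were tested, and 2 were lower in replicate 1. Of 20 ubiquitin ligase, autophagy and lysosome genes, 9 had class reads, 7 were tested and 2 were higher in replicate 1. None of 12 long noncoding RNAs with reads had a class read, but only 2 of them had at least 20 reads in both libraries.

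A longer last exon went with a higher share of all single-exon reads, and the class did not follow that order. In 401 genes with a last exon below 250 nt, all single-exon reads averaged 5.48% of gene reads in replicate 1 and 6.22% in replicate 2. In 165 genes with a last exon of 4000 nt or more the averages were 20.7% and 21.9%. The class averaged 2.24% and 2.74% below 250 nt and 1.62% and 2.27% in those with the longest exons. Across 3944 genes, Spearman's rho with the length of the last exon was -0.0737 for the class in replicate 1 and -0.0745 in replicate 2, and 0.334 and 0.337 for all single-exon reads. These are descriptions across genes, which share library and depth and are not independent replicates.

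**Figure D5:**
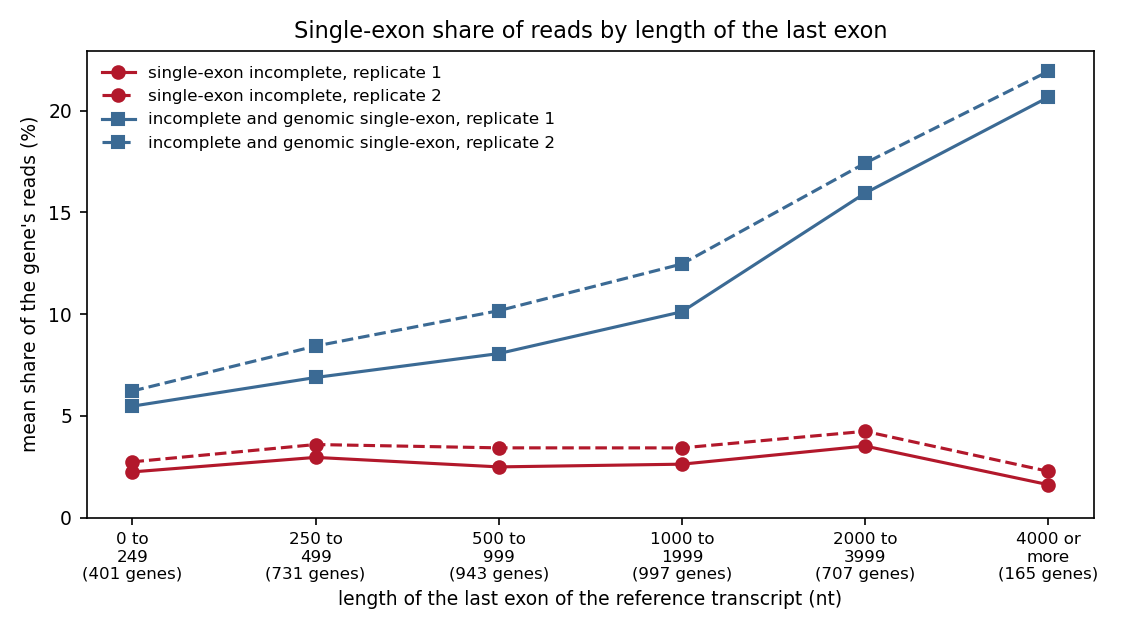
Mean share of a gene's reads, in percent, on single-exon incomplete models (red) and on incomplete and genomic single-exon models together (blue), by length of the last exon of the reference transcript in nt, in replicate 1 (solid) and replicate 2 (dashed), with the number of genes below each class. The blue lines run up to 20.7% and 21.9% in the longest exons and the red lines stay below 5%.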

How the data were processed

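Per the labels, heart RNA was sequenced as long reads. The authors deposited, for each library, raw counts of reads on transcript models, in whole numbers and not normalized, and an annotation of all models. Per the deposited text descriptions, coordinates are mm10 and known models GENCODE M21; the annotation's source column names TALON for new models. Which aligner and filters were used is not given in the sources used here. Model classes, exon numbers and lengths, which carry no scale, are the authors'.

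From these, single-exon models called an incomplete splice match were taken, placed on GENCODE M21 transcripts, and joined between libraries by overlap on a strand. CPM is per 1e6 mouse reads, spike-ins left out. All 1886 and 2292 models in annotated genes matched M21 gene IDs. Shares were compared with Fisher's exact test and levels with an exact binomial test, two-sided, adjusted by Benjamini-Hochberg over all genes tested, with a threshold of 0.05. Spliced incomplete models of the 3′ part were the comparison for ends. A check of bases after model ends was not run. The tests were tested on simulated data. edgeR 4.0.16 (TMM) and DESeq2 1.42.0 size factors in R 4.3.3 were alternative scalings; with 1 group no quasi-likelihood contrast exists. Python 3.11.15, scipy 1.17.1 and pandas 2.3.3 were used.

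Named genes were the 20 with the highest class level, the 10 with the highest class share (at least 100 reads in each library), the 10 with most class reads outside the last exon, the 5 largest and 5 smallest differences in share among genes that passed, and up to 4 per list; sequences follow the models of these genes with most reads. Genes named for a whole coding sequence or in the paragraph on spliced models were chosen after their values were seen. The models, lists and tests were chosen with earlier results of these data known. Counts treat reads as independent molecules, so intervals cover counting error only. Some genes and 1 sequence are not reported here.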

Additional observations from a re-analysis of the deposited data

How the results depend on the processing

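The share of mouse reads in the class was 4.62% as a mean. It was 2.09% of all mouse reads without the class reads of the 10 leading genes. With all genomic single-exon models added it was 10.5%, and leaving out a library gave 3.74 to 5.50%. The last-exon share of reads, 97.2%, became 98.4% with any annotated last exon, 94.7% with the whole model inside, 94.9% with the 3′ end inside, 97.5% with at least 2 reads per model, 88.4% with each model counted once, 93.8% without the 10 leading genes and 96.8% without Pln; leaving out a library gave 97.1 to 97.2%. Its difference, replicate 1 minus replicate 2, was -0.13 percentage points. It reversed to 0.28 with any annotated last exon, 2.65 with each model counted once, 1.45 without the 10 leading genes and 0.51 without Pln, and passed the test at -0.66 with the whole model inside and -0.94 with the 3′ end inside. Models within 50 nt of an annotated end, 87.5%, became 94.95% weighted by reads and 90.1% with at least 2 reads; leaving out a library gave 86.5 to 88.5%. Against the 3′ part, weighting by reads gave a difference past the threshold of 4.67 points in replicate 1 and reversed it to 1.56 in replicate 2, where it was -0.75 and no longer passed with at least 2 reads. Genes called by share fell to 30 and by level to 90 with all genomic single-exon models added, and by level to 147 with at least 20 class reads. Loci with a partner, 45.2%, became 66.0% with at least 5 reads and 57.4% with at least 2; leaving out a library gave 40.8 to 49.7%. The causes were not tested. The other 39 values kept their direction and side of the threshold, or moved by less than the spread or 1.5 times. With 1 library left no test of genes was possible, so those counts have no value. The settings without Pln and with genomic models added (all, or those of the same interval) were chosen after seeing the data. No paired analysis was possible because there is 1 group. Depth sets a limit on small models: 41.4% of models in replicate 1 and 36.2% in replicate 2 had 1 read, and its part in the loci found in 1 library was not tested.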
